A study of Homo sapiens with 2 samples.

Results

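Kinesins are motor proteins that walk along microtubules with energy from ATP. The genes described here are all those whose platform symbol is KIF or KIFC followed by a digit, a rule on the name that uses no measured value. The rule found 41 genes, read by 57 of the 47323 probes of an Illumina bead array, out of 20046 named genes. RNA of radiation-adapted MHH-ES-1 cells was compared with RNA of wild-type MHH-ES-1 cells, an established human Ewing sarcoma line, on 1 array each. The labels put 4 Gy beside the adapted line. The way this dose was delivered, the time between irradiation and lysis, and whether the adapted line is 1 clone are not given in the sources used here. With 1 array per group no difference has a replicate check and no p-value is given.

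The kinesin superfamily holds motors with different jobs. Mitotic kinesins build the spindle, move chromosomes and cut the daughter cells apart, and their transcripts accumulate late in the cell cycle. Transport kinesins carry vesicles, mitochondria and other cargo, in neurons mainly along axons and dendrites. The 41 genes were placed by textbook role into 13 mitotic, 17 transport and 11 other kinesins, the last being ciliary, centriolar, signalling or poorly described motors. Some roles overlap, since KIF3A, KIF3B and KIF17 also serve cilia and KIF2A acts at spindles and in neurites.

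Mitotic kinesin promoters often carry the cell cycle homology region, a short element through which the DREAM and MuvB complexes repress late cell cycle genes in resting cells, and boxes for the activator NF-Y. The letters searched were TTTGAA for the core of that region and CCAAT for the NF-Y box, on both strands, in RefSeq promoters (GRCh38.p14) that reach from 250 bases before to 50 bases after each listed start. A promoter was in hand for 33 of the 41 genes. TTTGAA was present for 9 of 13 mitotic kinesin genes (69.2%) and for 1 of 12 transport kinesin genes (8.33%), and over all genes with a promoter the share was 18.2%. CCAAT was present for 10 of 13 mitotic genes (76.9%) and 4 of 12 transport genes (33.3%), with 39.7% over all genes. Both lay in the same promoter for 8 mitotic genes (61.5%) and 1 transport gene (8.33%), against 7.26% of all genes. A match describes the letters and does not show that a factor binds there. The sequences below run from 100 bases before to 50 bases after the start, with each match in capitals (TTCAAA and ATTGG are the same letters read on the other strand). They show 6 mitotic genes with core and box, among them those with the highest and the lowest ratio (KIF14 and KIFC1), 2 mitotic genes without the core, and 2 transport genes for contrast.
KIF14, chr1:200620702-200620851, minus strand: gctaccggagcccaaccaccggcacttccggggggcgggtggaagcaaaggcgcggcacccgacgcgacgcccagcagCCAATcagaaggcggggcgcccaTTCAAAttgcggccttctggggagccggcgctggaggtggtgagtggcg
KIF23, chr15:69414249-69414398, plus strand: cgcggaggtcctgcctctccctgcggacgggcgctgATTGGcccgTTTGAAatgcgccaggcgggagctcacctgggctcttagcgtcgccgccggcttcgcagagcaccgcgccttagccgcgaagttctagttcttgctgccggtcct
KIF18A, chr11:28108107-28108256, minus strand: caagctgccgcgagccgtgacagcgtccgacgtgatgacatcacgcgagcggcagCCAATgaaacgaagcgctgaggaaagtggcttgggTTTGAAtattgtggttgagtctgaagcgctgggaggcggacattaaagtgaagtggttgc
KIF11, chr10:92593030-92593179, plus strand: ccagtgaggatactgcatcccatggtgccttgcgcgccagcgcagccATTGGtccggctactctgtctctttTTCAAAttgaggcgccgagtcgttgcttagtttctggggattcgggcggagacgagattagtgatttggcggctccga
KIF4A, chrX:70290004-70290153, plus strand: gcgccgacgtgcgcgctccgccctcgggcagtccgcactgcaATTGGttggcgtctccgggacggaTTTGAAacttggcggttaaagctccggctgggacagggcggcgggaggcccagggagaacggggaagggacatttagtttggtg
KIFC1, chr6:33391723-33391872, plus strand: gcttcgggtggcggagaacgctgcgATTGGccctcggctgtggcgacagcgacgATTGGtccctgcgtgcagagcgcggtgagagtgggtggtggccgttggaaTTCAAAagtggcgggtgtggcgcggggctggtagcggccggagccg
KIF20A, chr5:138179012-138179161, plus strand: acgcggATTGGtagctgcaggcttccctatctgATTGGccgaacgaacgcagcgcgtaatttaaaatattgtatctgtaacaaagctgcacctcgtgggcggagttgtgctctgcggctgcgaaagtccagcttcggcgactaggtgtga
KIF2C, chr1:44739737-44739886, plus strand: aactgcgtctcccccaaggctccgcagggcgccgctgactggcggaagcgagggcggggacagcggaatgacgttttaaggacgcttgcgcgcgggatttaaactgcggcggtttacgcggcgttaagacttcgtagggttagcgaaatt
KIF1A, the innermost of 3 listed starts, chr2:240820170-240820319, minus strand: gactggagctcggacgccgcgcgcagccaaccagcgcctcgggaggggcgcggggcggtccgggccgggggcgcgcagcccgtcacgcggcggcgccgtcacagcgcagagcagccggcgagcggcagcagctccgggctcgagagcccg
KIF3C, chr2:25982448-25982597, minus strand: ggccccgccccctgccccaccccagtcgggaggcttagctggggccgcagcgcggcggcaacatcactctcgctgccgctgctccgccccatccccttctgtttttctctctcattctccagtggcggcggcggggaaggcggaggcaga

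The 10 matches to TTTGAA in mitotic promoters began between position -55 and position 31 from the start. In KIF23 the box began at position -64 and the core at position -55. KIF20A held 2 boxes and no core, and KIF2C held neither. The 3 promoters listed for KIF1A had no match to either motif and differed in base composition, with 51.7%, 71.3% and 81.0% G and C.

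**Figure D1:**
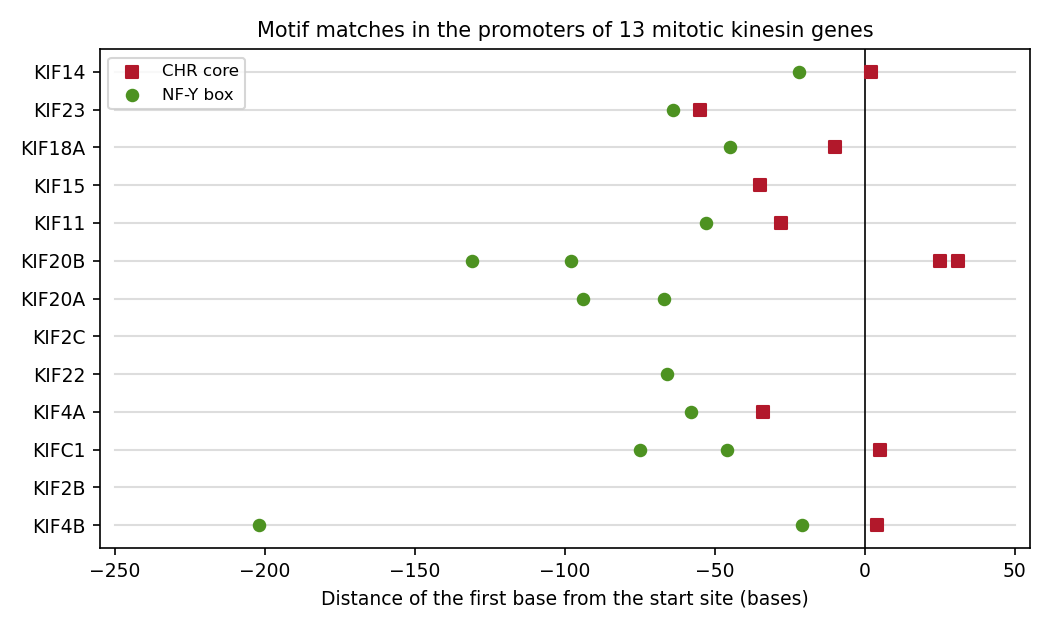
Positions of the TTTGAA core of the cell cycle homology region (squares) and of the CCAAT box for NF-Y (circles) in the promoters of 13 mitotic kinesin genes, ordered from the highest log2 ratio to the lowest, with both undetected genes at the bottom. The horizontal axis is the distance of the first base of a match from the start site in bases, and the cores lie between -55 and 31.

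Of the 47323 probes, 17718 (37.4%) were detected on the radiation-adapted array and 16220 (34.3%) on the wild-type array, at a detection p-value under 0.01 against the negative controls of the array. All 7 annotated Ewing sarcoma markers were detected on both arrays, among them NKX2-2, CD99 and PRKCB. In radiation-adapted cells NKX2-2 was 3.40-fold higher and CCND1 2.01-fold higher, and CD99 was 1.86-fold lower. STEAP1 was also lower, with 1896.3 in radiation-adapted cells and 3706 in wild-type cells. PRKCB, FLI1 and EWSR1 were nearer to equality. Of 4 endothelial markers 0 were detected on either array. Of 5 epithelial markers 0 were detected on the radiation-adapted array and 1 on the wild-type array. Of 8 leukocyte markers 5 were detected on each array, with PTPRC and CD3E on neither, and of 6 fibroblast markers 4 on each, but their levels differed widely. ITGB2, a leukocyte integrin subunit, had 641.7 in radiation-adapted cells and 10563.9 in wild-type cells, 20.3-fold lower in radiation-adapted cells. LYZ was 2.47-fold lower, CD79A 2.56-fold lower and CORO1A at least 2.71-fold lower. The leukocyte marker CD68 went the other way, with 681.6 in radiation-adapted cells and 249.8 in wild-type cells (3.44-fold higher). CD14 was detected on the radiation-adapted array only and gives no fold. Of the fibroblast markers, THY1 was at least 27.8-fold higher and COL1A1 7.92-fold higher in radiation-adapted cells, DCN at least 11.6-fold lower and LUM at least 5.66-fold lower. Their part in the kinesin values was not tested.

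Of the 41 kinesin genes, 26 were detected on at least 1 array, 25 of them on both. Values are mean bead signals as deposited, and a log2 ratio is the radiation-adapted minus the wild-type value after background correction and quantile normalization. A 2-fold difference is 1 on this scale. The SD between probes of the same gene was 0.45 over 2269 genes, and the median of all 11352 detected named genes was -0.010. Among the 26 genes, 3 were higher in radiation-adapted cells by 2-fold or more (11.5%), where the share of all detected named genes was 12.4%. KIF26A was the 1 gene at least 2-fold lower (3.85%), where the share of all genes was 10.3%. The other 22 lay within 2-fold, and 19 of the 26 (73.1%) had a ratio above 0, against 49.3% of all genes. All 3 higher genes were transport kinesins (27.3% of the 11 detected), and 0 of 11 detected mitotic kinesins were past 2-fold in either direction, where the share of all genes past 2-fold either way was 22.6%.

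**Figure D2:**
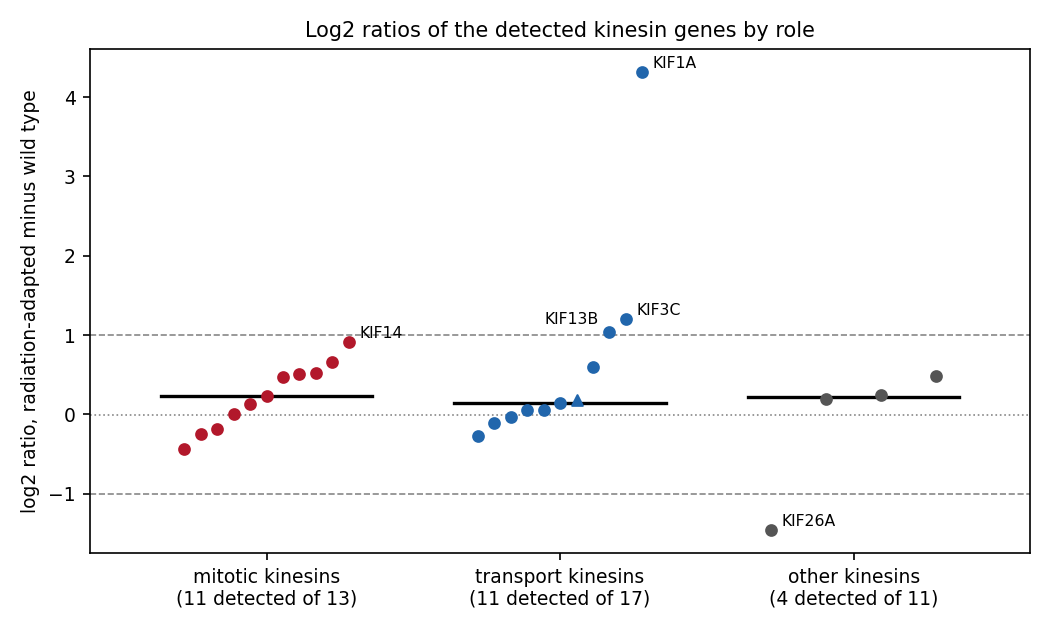
Log2 ratios (radiation-adapted minus wild type, 1 array each) of the 26 detected kinesin genes by role. Each circle is a gene measured on both arrays, the triangle is the lower bound of KIF21B, black bars are medians (0.23 mitotic, 0.14 transport, 0.22 other), the dotted line is the median of all genes and dashed lines mark 2-fold; KIF1A stands at 4.31.

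KIF1A, the axonal motor for synaptic vesicle precursors and dense core vesicles, stood apart from all other kinesins. Its signal was 3489.9 in radiation-adapted cells and 269.3 in wild-type cells, both above background. The difference was 19.9-fold on the normalized scale (log2 ratio 4.31), which placed it at rank 28 from the top among the 11352 genes, bounds included. In the authors' deposited table of processed values KIF1A had 3330.3 in radiation-adapted cells and 148.2 in wild-type cells. The gene is read by 1 probe, so no second probe could be set beside it. The next highest log2 ratio among the kinesins was 1.20.

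The near relatives of KIF1A did not share its size of difference. KIF1B, which carries mitochondria or synaptic vesicle precursors depending on the isoform, had signals of 1094.6 in radiation-adapted cells and 970.5 in wild-type cells at its brightest probe (log2 ratio 0.054). A further KIF1B probe, whose annotation cites another transcript, had 473.4 in radiation-adapted cells and 261.8 in wild-type cells (log2 ratio 0.96). These probes disagreed by 0.90 on the log2 scale, one near equality and the other close to 2-fold. The dimmest of the 3 KIF1B probes had 165.1 in radiation-adapted cells, just above background, and 157.9 in wild-type cells, where it was not well above background, and gives no fold. KIF1C, a motor of secretory vesicles, had 256.1 in radiation-adapted cells and 250.5 in wild-type cells, with a log2 ratio of -0.27 that was 0.063 without scaling between arrays.

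Other members of the kinesin-3 family ranged widely. KIF13B, which binds the scaffold protein DLG1, had a signal of 338.3 in radiation-adapted cells and 200.3 in wild-type cells, a 2.05-fold difference. KIF16B, an early endosome motor, had 186.6 in radiation-adapted cells and 166.3 in wild-type cells at the brighter probe. Its probes lay on either side of 0, with log2 ratios of 0.14 and -0.67. KIF13A, a motor of recycling endosomes, was not well above background on either array. With KIF14, a cytokinesis motor, this family of 7 genes had 6 detected members spread over 4.58 log2 units, from KIF1C to KIF1A.

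KIF3C, a kinesin-2 subunit abundant in neurons, had a signal of 302.4 in radiation-adapted cells and 178.9 in wild-type cells, a 2.29-fold difference (log2 ratio 1.20). KIF3B belongs to the same family and forms the motor of intraflagellar transport with KIF3A. Its signal was 553.5 in radiation-adapted cells and 488.4 in wild-type cells (log2 ratio -0.028, and 0.17 at its other probe). The KIF3B ratio was 0.16 with median scaling and 0.23 without scaling between arrays. In the main values KIF3C exceeded KIF3B by 1.23 log2 units. The SD of 0.45 between probes measures disagreement of probes on these arrays, not variation between cultures, and is no test of this difference. KIF3A and KIF17 were not well above background. KIF3C and KIF13B were dim in wild-type cells, and their ratios depended on the background step: without background correction they were 0.59 and 0.57, below 2-fold, and with a larger offset of 50 they were 0.91 and 0.83.

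Of the kinesin-1 heavy chains, which carry mitochondria and vesicles with their light chains, KIF5B was the 1 detected. The ubiquitous KIF5B had 605.3 in radiation-adapted cells and 513.1 in wild-type cells, a log2 ratio of 0.050. The neuronal heavy chain genes KIF5A and KIF5C were not well above background in either line. KIF5A had 147.3 in radiation-adapted cells and 133.4 in wild-type cells at its brighter probe, and KIF5C had 145.0 in radiation-adapted cells and 144.7 in wild-type cells. The cells with high KIF1A signal thus had no detected signal of these neuronal heavy chains.

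KIF21A, a cortical motor that restrains microtubule growth, had 442.2 in radiation-adapted cells and 397.5 in wild-type cells, with a log2 ratio of -0.11 that was 0.14 with median scaling and 0.21 without scaling between arrays. KIF21B, found in dendrites and in immune cells, was detected in radiation-adapted cells (175.4) and was not well above background in wild-type cells (120.3). Set against the lowest detected signal of the wild-type array, the dim level of KIF21B in radiation-adapted cells was at least 1.14-fold higher. This bound (log2 ratio 0.19) lay inside the SD between probes, and the other 2 KIF21B probes were not detected. KIFC2, a minus-end-directed motor described in mouse neurons, had 517.2 in radiation-adapted cells and 328.6 in wild-type cells, a 1.52-fold difference. KIFC3, another minus-end-directed motor, was not well above background. Without KIF1A the other 10 detected transport kinesins had a median log2 ratio of 0.0996 and reached from -0.27 to 1.20.

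**Figure D3:**
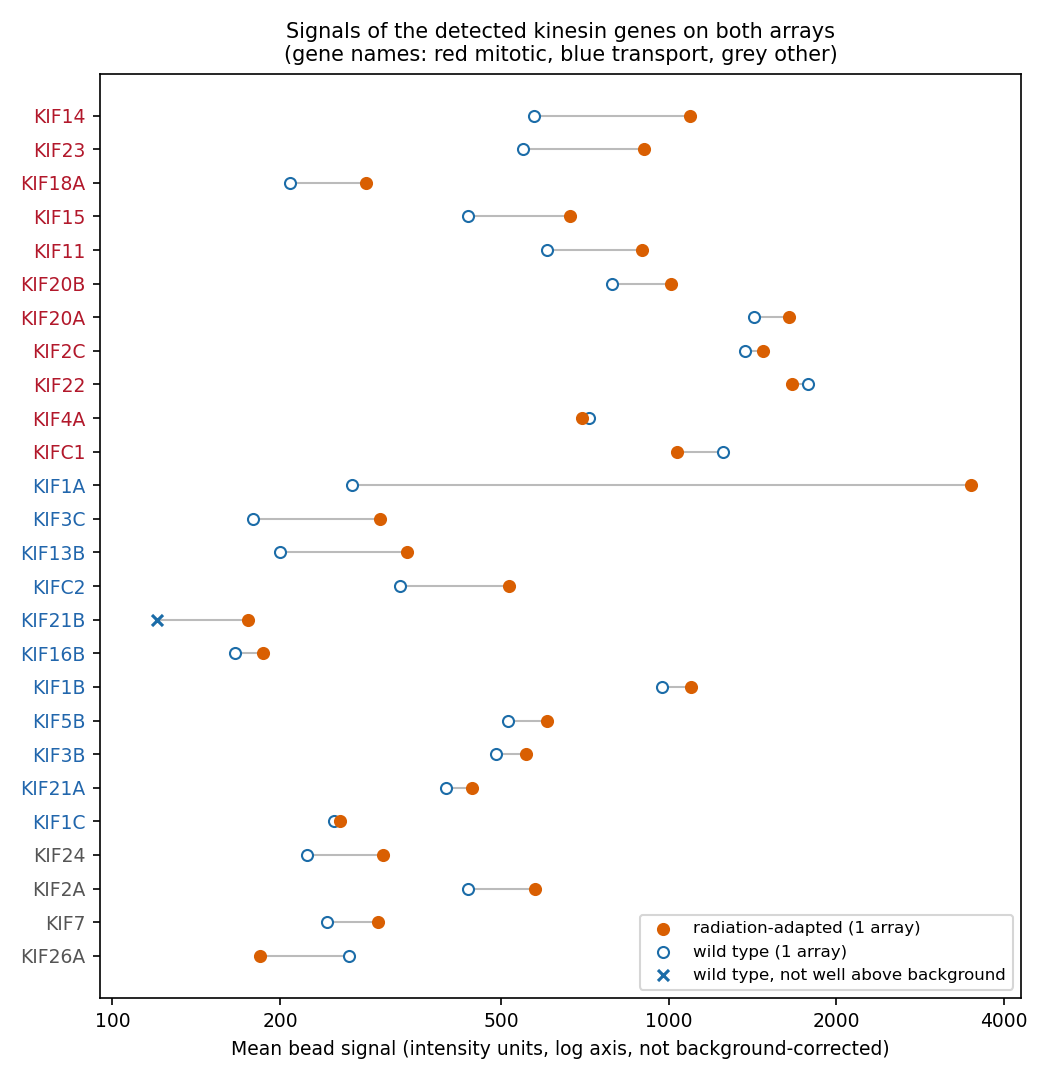
Mean bead signal of each detected kinesin gene at the probe used, in radiation-adapted cells (filled) and wild-type cells (open; a cross where not well above background), 1 array each, on a log axis in intensity units before background correction. KIF1A has the widest gap, 3489.9 in radiation-adapted and 269.3 in wild-type cells, and KIF26A, KIF22, KIF4A and KIFC1 are the genes with the lower signal in radiation-adapted cells.

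No mitotic kinesin stood as far apart as KIF1A. In bulk RNA a larger share of dividing cells and more RNA per dividing cell cannot be told apart. Their 11 detected genes, all measured on both arrays, had a median log2 ratio of 0.23 and an SD of 0.42 among genes, where the transport kinesins had a median of 0.14 and an SD of 1.30. The wider spread of the transport kinesins rested on KIF1A, and the other 10 had an SD of 0.49. The medians of the 2 roles differed by 0.087, and with median scaling or no scaling the difference (mitotic minus transport) was -0.079. Of the mitotic genes, 8 had a ratio above 0 and 3 below it.

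The spindle and cytokinesis motors KIF14 and KIF23 had the highest ratios of this group at the probes used. KIF14, which acts at the midbody with citron kinase, had 1092.9 in radiation-adapted cells and 573.0 in wild-type cells, a 1.88-fold difference that passed 2-fold without scaling between arrays (log2 ratio 1.09) and with median scaling (1.02). KIF23, the motor subunit of centralspindlin, had 902.4 in radiation-adapted cells and 546.2 in wild-type cells, a 1.58-fold difference (log2 ratio 0.66, and 0.29 at its dimmer probe). The other motors of its family were nearer to equality. KIF20B had 1008.5 in radiation-adapted cells and 789.4 in wild-type cells (log2 ratio 0.23). KIF20A, which brings the chromosomal passenger complex to the midzone, had 1642.5 in radiation-adapted cells and 1420.2 in wild-type cells (log2 ratio 0.13).

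KIF11 and KIF15, motors that push spindle poles apart, and KIF18A came next at the probes used. KIF11, the bipolar motor known as Eg5 and the target of several antimitotic drugs, had 894.9 in radiation-adapted cells and 603.1 in wild-type cells, a 1.39-fold difference. Its 2 probes were close, with log2 ratios of 0.47 and 0.52. KIF15, which can keep a spindle bipolar when KIF11 is inhibited, had 663.6 in radiation-adapted cells and 435.7 in wild-type cells, a 1.43-fold difference. KIF18A, which dampens chromosome oscillation at the plate, had 285.6 in radiation-adapted cells and 208.6 in wild-type cells, a 1.44-fold difference, and its other probe was not detected. From KIF14 to KIF11 the ordered ratios (KIF14, KIF23, KIF18A, KIF15 and KIF11) spanned less than the SD between probes. Their order therefore carries no weight.

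At the lower end stood a depolymerase, motors of chromosome arms and a motor of minus-end-directed spindle focusing. KIF2C, the microtubule depolymerase MCAK, had 1477.7 in radiation-adapted cells and 1369.7 in wild-type cells, a log2 ratio of 0.0048. KIF22, the chromokinesin Kid, had 1666.0 in radiation-adapted cells and 1781.5 in wild-type cells (log2 ratio -0.18). KIF4A, the chromokinesin that limits midzone length, had 699.5 in radiation-adapted cells and 717.7 in wild-type cells (log2 ratio -0.25). KIF4B, a near-identical copy of KIF4A, was not well above background at its probe, and whether the KIF4A probe also reads KIF4B was not tested. KIFC1, which clusters extra centrosomes in cancer cells, had 1033.8 in radiation-adapted cells and 1253.2 in wild-type cells, a difference of 1.35-fold towards wild type. KIF22, KIF4A and KIFC1 kept a ratio below 0 under the 10 processing alternatives, all run on the same arrays. Changes of detection filter or probe choice could not move them, since each has 1 probe detected on both arrays. The ratios of KIF22, KIF4A and KIFC1 (log2 ratio -0.44) lay inside the SD of 0.45 between probes, in the main values and under every alternative. Without scaling between arrays KIF4A reached -0.043. KIF2B was not well above background.

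The detected mitotic genes with the TTTGAA core in their promoter spanned this whole range. The 8 genes with it ran from -0.44 (KIFC1) to 0.91 (KIF14), with a median log2 ratio of 0.49. The 3 without it (KIF20A, KIF22 and KIF2C) ran from -0.18 to 0.13, with a median of 0.0048. Whether the letters bear on the ratios was not tested. The values of the 3 lay inside the range of the 8.

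Among the remaining kinesins, KIF26A was lower in radiation-adapted cells. KIF26A belongs to a divergent family without detectable ATPase activity and was shown in mice to restrain growth factor signalling in enteric neurons. Its signal was 184.0 in radiation-adapted cells and 266.4 in wild-type cells, a 2.75-fold difference towards wild type (log2 ratio -1.46), and -0.69 without background correction. KIF24, which controls centriole capping, had 305.9 in radiation-adapted cells and 223.3 in wild-type cells (log2 ratio 0.48). KIF2A, a depolymerase of spindle poles and neurites, had 574.6 in radiation-adapted cells and 435.1 in wild-type cells (log2 ratio 0.25). KIF7, a ciliary regulator of Hedgehog signalling, had 299.9 in radiation-adapted cells and 243.4 in wild-type cells (log2 ratio 0.19). KIF6, KIF9, KIF12, KIF19, KIF25, KIF26B and KIF27 were not well above background. Over the 22 probes of all 15 undetected kinesin genes, signals ran from 112.4 to 154.2 in radiation-adapted cells and from 113.6 to 148.7 in wild-type cells.

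The chromosomal setting of each gene was described with the 20 nearest detected genes, 10 on each side. Around KIF26A on chromosome 14, from MARK3 to BTBD6, the neighbours had a median log2 ratio of -0.97, with 9 of 20 at least 2-fold lower and 1 of 20 above 0. That median lies outside the central 95% of such medians over 11341 genes (-0.72 to 0.69), and KIF26A was 0.49 below it. Whether KIF26A differs by itself or with this stretch of the chromosome was not tested. KIF1A, near the end of chromosome 2 between TWIST2 and ING5, had neighbours with a median of -0.34, and exceeded it by 4.65. KIF3C on chromosome 2 and KIF13B on chromosome 8 also stood above their neighbours, by 1.32 and 1.14. KIF20B and KIF11, both on chromosome 10, had neighbour medians of 0.48 and 0.32, and KIF20B lay 0.25 below its neighbours. After subtraction of the neighbour medians the mitotic kinesins had a median of 0.15 and the transport kinesins of 0.12.

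**Figure D4:**
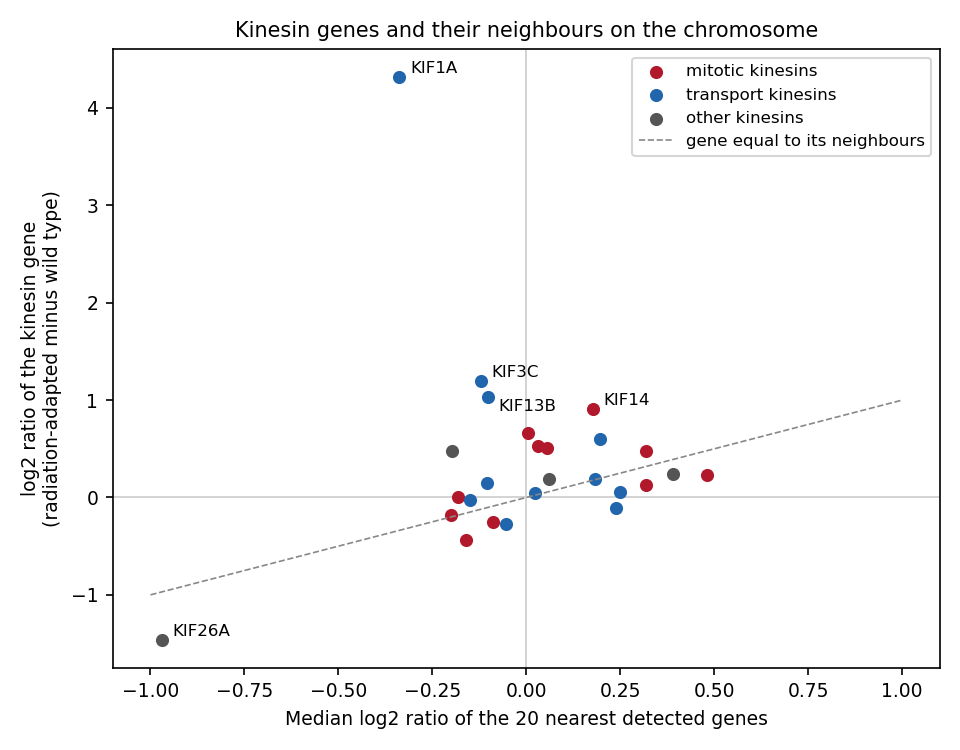
Log2 ratio of each of the 26 detected kinesin genes (vertical axis) against the median log2 ratio of its 20 nearest detected genes (horizontal axis), coloured by role. On the dashed line a gene equals its neighbours; KIF26A lies beside neighbours at -0.97, and KIF1A lies 4.65 above its own.

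Genes that work with the kinesins were listed by role. Of 21 detected mitotic partners, 2 were higher in radiation-adapted cells by 2-fold or more (9.52%, against 12.4% of all detected genes) and 0 lower (against 10.3%), with a median log2 ratio of 0.13, where the median of all genes was -0.010. They were the proliferation marker MKI67 (466.3 in radiation-adapted cells, 180.7 in wild-type cells, 4.21-fold) and the kinetochore gene CENPF (1821.8 in radiation-adapted cells, 489.9 in wild-type cells, 4.06-fold). MKI67 was dim in wild-type cells, and its ratio was not examined under other processing. CENPE, the kinetochore kinesin whose symbol falls outside the rule, had 868.8 in radiation-adapted cells and 926.0 in wild-type cells (log2 ratio -0.27). PLK1, a mitotic kinase that binds KIF20A, had the lowest ratio (-0.97), followed by the spindle pole kinase AURKA (-0.64). Of 11 detected replication genes 2 were at least 2-fold higher (18.2%, against 12.4% of all genes), MCM2 (2.05-fold) and MCM4 (2.02-fold), and the median of 0.58 was above the 0.23 of the mitotic kinesins. All 11 had a ratio above 0, against 49.3% of all genes, from TYMS at 0.17 to MCM2 at 1.03.

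Among 20 detected light chains, adaptors and regulators, 2 were at least 2-fold higher and 2 lower, with a median log2 ratio of -0.0074. These shares of 10% each way were near the 12.4% and 10.3% of all genes. MAP7D2, a microtubule-associated protein that recruits kinesin-1 to microtubules, had 1384.8 in radiation-adapted cells and 177.3 in wild-type cells, a 17.2-fold difference. Its wild-type signal was as dim as that of KIF3C, so the size of this fold may depend on the background step, which was not tested for it. MAPK8IP3, the scaffold JIP3 that links kinesin-1 to axonal cargo, had 499.2 in radiation-adapted cells and 238.5 in wild-type cells (2.49-fold). TRAK2, which tethers kinesin-1 to mitochondria, had 484.5 in radiation-adapted cells and 1418.7 in wild-type cells, a 4.05-fold difference towards wild type. KLC1, a kinesin light chain gene, had 392.9 in radiation-adapted cells and 601.4 in wild-type cells, a 2.11-fold difference towards wild type. KIFAP3, the adaptor of the KIF3 motors, had a log2 ratio of 0.51, and KIFBP, which blocks several kinesins from microtubules, 0.48. MADD, which links KIF1A to vesicles, had 252.3 in radiation-adapted cells and 269.5 in wild-type cells (log2 ratio -0.51).

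KIF1A carries dense core vesicles in neurons. Of 13 annotated genes linked to these vesicles, not all of them cargo, 6 were detected, with a median log2 ratio of -0.32. Of the 6, 2 were at least 2-fold higher and 2 lower (33.3% each way, against 12.4% and 10.3% of all genes). VGF, a neuropeptide precursor, was at least 3.52-fold higher in radiation-adapted cells, and PAM, the peptide amidating enzyme, 2.93-fold higher. SCG2, a granin, was 4.14-fold lower and CADPS2, a priming factor, 3.54-fold lower. Of 7 neuronal markers 4 were detected on each array: STMN2 was at least 2.29-fold higher in radiation-adapted cells, TUBB3 1.91-fold lower and GAP43 at least 4.07-fold lower. Both lists held genes on either side of 0.

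The opposite motor, cytoplasmic dynein with dynactin, had 27 detected genes with a median log2 ratio of 0.20, 2 of them at least 2-fold higher (7.41%) and 1 lower (3.7%), shares below the 12.4% and 10.3% of all genes. PAFAH1B1, the dynein regulator LIS1, was 2.32-fold higher in radiation-adapted cells and the adaptor HOOK1 2.09-fold higher. DYNLT1, a dynein light chain, was 2.40-fold lower, and HOOK2 had a ratio of -0.82. The heavy chain DYNC1H1 had 1658.7 in radiation-adapted cells and 1502.1 in wild-type cells, a log2 ratio of 0.070.

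**Figure D5:**
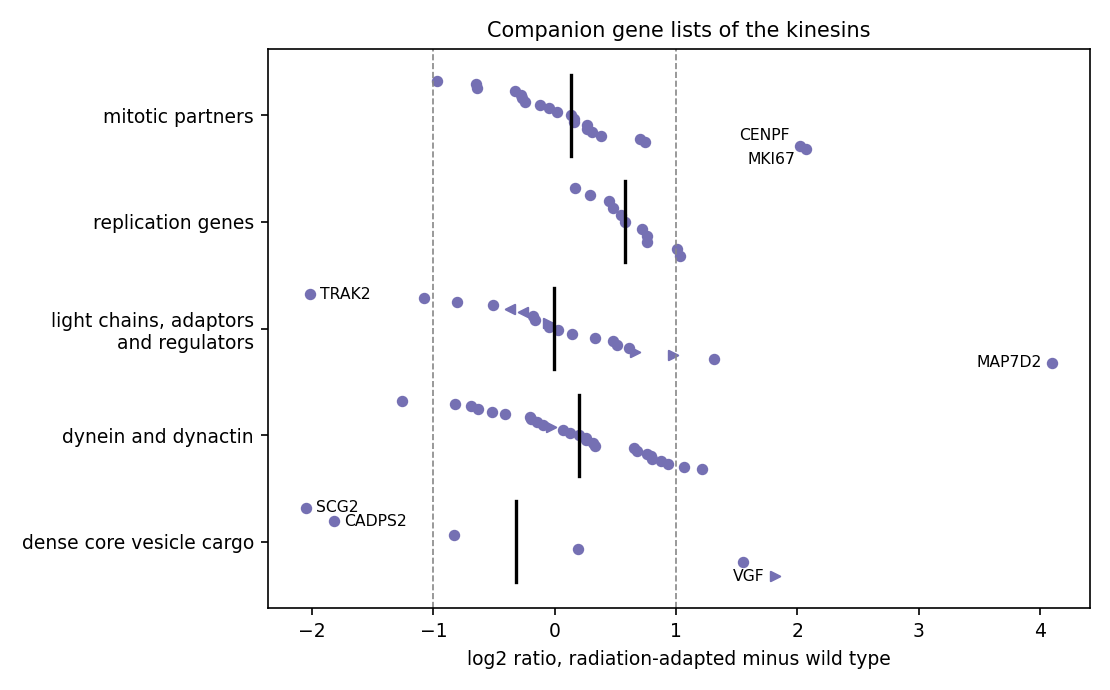
Log2 ratios (radiation-adapted minus wild type) of detected genes in 5 lists that accompany the kinesins. Circles are genes measured on both arrays, triangles are bounds, black bars are medians and dashed lines mark 2-fold; MAP7D2 stands at 4.10 and TRAK2 at -2.02.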

How the data were processed

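Biotin-labelled cRNA of 1 radiation-adapted and 1 wild-type sample was hybridised to Illumina bead arrays, per the labels' protocols. The deposited unprocessed table holds a mean bead signal per probe (linear intensity, with no background subtraction or scaling, as the values show) and a detection p-value, per the file headers. The authors' deposited processed table holds linear intensity values below 0 and of equal distribution in both arrays. The authors' steps behind these tables are not stated in the sources used here.

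Main values were computed with limma 3.58.1 in R 4.3.3 (neqc, offset 16, quantile normalization, log2). A run on simulated data changed bright probes only. It does not bear on genes as dim in wild-type cells as KIF1A, KIF3C, KIF13B and KIF26A. Each gene took the brightest probe with a detection p-value under 0.01 on at least 1 array. For genes missing detection on an array, a value there below the dimmest detected probe (log2 5.36 for radiation-adapted, 5.60 for wild type) was raised to it, which makes the ratio a bound. Platform annotation named 1 gene for 30113 probes and several for 8, and 17202 probes were left unnamed. The number of arrays limits the precision. Genes were named by rule: all detected members and, of each companion list, the genes past 2-fold and the extremes. The extremes were the 2 highest and 2 lowest ratios among genes detected on both arrays. MCM7 (log2 ratio 0.29) and SYT11 (0.19) fall under this rule and were left out above. CENPE, KIFAP3, KIFBP, MADD and DYNC1H1 were added for their roles after their values were seen. Promoters shown were chosen after the values were seen. Members, roles and lists were chosen with earlier results of these data known. Another 10 processing alternatives were tried.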

Additional observations from a re-analysis of the deposited data

How the results depend on the processing

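KIF1A kept a log2 ratio between 3.64 (no background correction) and 4.49 (the authors' processed values) under all 10 alternatives. Over the detected kinesins, 254 of 259 gene values moved by less than the SD between probes. That SD exceeded the main ratio of many kinesins, so a value could change sign and still be counted. The 7 values of opposite sign given below are among the 254. Part of this count was fixed in advance. The settings for detection and probe choice cannot move a gene with 1 probe detected on both arrays, such as KIF1A. No gene past 2-fold changed sign. Of the genes within 2-fold, 7 values of 4 genes had the opposite sign: KIF3B (0.16 with median scaling, 0.23 without scaling, 0.072 with the mean of detected probes), KIF21A (0.14 with median scaling, 0.21 without scaling), KIF1C (0.063 without scaling) and KIF16B (-0.26 with the mean of detected probes). The 5 values that moved by more were KIF1A, KIF3C, KIF13B and KIF26A without background correction and KIF21B without a detection filter (1.34). The median of the mitotic kinesins was 0.34 with median scaling, 0.41 without scaling and 0.13 without a detection filter, and that of the transport kinesins 0.42 with median scaling and 0.49 without scaling, settings that placed the median of all genes at 0.16 with median scaling and 0.23 without scaling. The difference of the medians, mitotic minus transport, was -0.079 under both. Kinesin genes at least 2-fold higher numbered 3 in the main values, 1 without background correction, 1 with an offset of 50, and 4 with median scaling, without scaling or without a detection filter, and 0 were at least 2-fold lower without background correction. Over all genes, 688 were at least 2-fold higher and 557 lower without background correction, against 1403 and 1168. The share of the 2-fold genes that were higher was 54.6% in the main values, 67.0% with median scaling and 71.7% without scaling. The cause was not tested beyond what each setting changes. Dim genes are limited by signal over background. No paired analysis was possible because each group has 1 array.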
